A study of Bos taurus with 52 samples.

Results

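Cells make cholesterol in a long chain of enzymes, take it up with lipoproteins, store it as esters and export it. The genes of this system were followed here through 30 members chosen by symbol, out of 31651 named genes, in endometrium and conceptuses of heifers classed by fertility. The list was drawn up with earlier results of these data known. All 30 were present in the table. They were placed in 6 roles: 7 enzymes that lead to the isoprenoid units (HMGCS1, MVK, PMVK, MVD, IDI1, FDPS and ACAT2), 11 enzymes of the squalene and sterol branch (FDFT1, SQLE, LSS, CYP51A1, TM7SF2, MSMO1, NSDHL, HSD17B7, EBP, SC5D and DHCR7), 5 regulators (SREBF1, SREBF2, SCAP, INSIG1 and INSIG2), 4 genes of lysosomal release and transport (LIPA, NPC1, NPC2 and STARD4), SOAT1 for esterification, and 2 exporters (ABCA1 and ABCG1). The first 2 roles are called the 18 synthesis genes below.

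The study set out to compare the uterus and the conceptus between heifers classed as high fertile (HF), subfertile (SF) and infertile (IF). Endometrium, the lining of the uterus, came from 5 heifers in each of 5 groups. Heifers without a pregnancy were of all 3 classes (written NP-HF, NP-SF and NP-IF), and those with one were HF or SF (written P-HF and P-SF). Pregnant endometrium and conceptuses were taken on day 17, when the bovine conceptus is elongating. The sources used here do not give the day of the non-pregnant samples, the ages of the animals or the way they were classed. The 27 conceptuses came from 19 heifers: 10 conceptuses from 7 SF heifers, 10 from 10 HF heifers in the size class long, and 7 from 6 HF heifers in the size class short. Some heifers therefore gave more than 1 conceptus, and 4 gave both a short and a long one. Length was stated for 20 conceptuses and ran from 1.2 to 6.9 cm in HF short and from 9 to 17 cm in HF long. In SF the shortest was 1.5 cm, and the longest lay between those of the HF classes. For 22 conceptuses the title and the description named different animals or lengths. Titles were used.

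The pathway starts from acetyl-CoA, runs through mevalonate and farnesyl diphosphate to squalene, and closes squalene into lanosterol, which is trimmed to cholesterol. SREBP-2, the product of SREBF2, switches these genes on when sterol in the endoplasmic reticulum is low, escorted to the Golgi by SCAP and held back by the INSIG proteins when sterol is plentiful. Cholesteryl esters that arrive with lipoproteins are cut in the lysosome by LIPA and handed out by NPC2 and NPC1. SOAT1 makes esters again for storage, and ABCA1 and ABCG1 move sterol out of the cell. Ruminant conceptuses lengthen in the uterine lumen before attachment, and lipids in the uterine fluid are among their nutrients.

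Total counts per library were 17077635 to 27292222 in endometrium and 20549492 to 46966995 in conceptuses. Levels are given as CPM, the count of a gene per fixed amount of library total, scaled by TMM within each tissue, and differences as log2 fold changes ± SE from edgeR's quasi-likelihood test. A gene was called at a Benjamini-Hochberg adjusted p under 0.05 over all genes tested. On the first principal component of the endometrium (34.4% of the variance), library P-HF 1 lay among the P-SF libraries and P-SF 5 lay beyond all P-HF libraries. Libraries C-HF-long 8 and 9 lay at one end of the first component of the conceptuses (25.3%). The descriptions of conceptuses number the libraries in 2 series, called sample sheets here. The labels do not say whether these were sequencing batches. Each conceptus was given the sheet of the description that names its titled animal and length, which put 20 on one sheet, the first, and 7 on the other (3 SF, 4 HF short and no HF long). By the description on its own record, 12 conceptuses would change sheet and the smaller sheet would hold 3 SF, 3 HF long and 1 HF short conceptus. The summed level of 8 trophectoderm markers was 9161 to 32158 CPM in conceptuses and 317 to 485 CPM in endometrium. That of 6 uterine markers was at most 22.2 CPM in conceptuses and at least 3715 CPM in endometrium, so the tissues matched their labels. The labels give each endometrial library its own animal number but say no more on how samples were taken, and p-values rest on the spread between these libraries.

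The first comparison asked what day 17 pregnancy went with in the endometrium of HF heifers. Genes of synthesis, of lysosomal release and of storage were among those that rose. Of the 30 members, 12 were called higher with pregnancy (P-HF against NP-HF) and 0 lower. Of the 19606 tested genes 20.8% were called, 10.2% higher and 10.6% lower. The median log2 fold change over the members was 0.50, against -0.01 over all tested genes, and 25 members were above 0. The 12 called genes spanned the pathway from HMGCS1 to DHCR7 and included INSIG1, LIPA, NPC1 and SOAT1. Neither exporter was called. Endometrial pieces hold several cell types, and in such bulk samples a change in the number of cells of a type and a change in RNA per cell cannot be told apart. Markers moved with pregnancy as well: the summed level of 9 epithelial markers was 1749 to 2034 CPM in P-HF and 1232 to 1571 CPM in NP-HF, with 3 of 9 called higher, and that of 7 stromal markers was 4929 to 8147 CPM in P-HF and 12379 to 24038 CPM in NP-HF, with 4 of 7 called lower. Of 6 endothelial markers 2 were called lower. Of 7 immune markers 3 were called higher, and their sum was 123 to 188 CPM in P-HF and 96.6 to 151 CPM in NP-HF. The part of these markers in the results on the members was not tested.

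**Figure D1:**
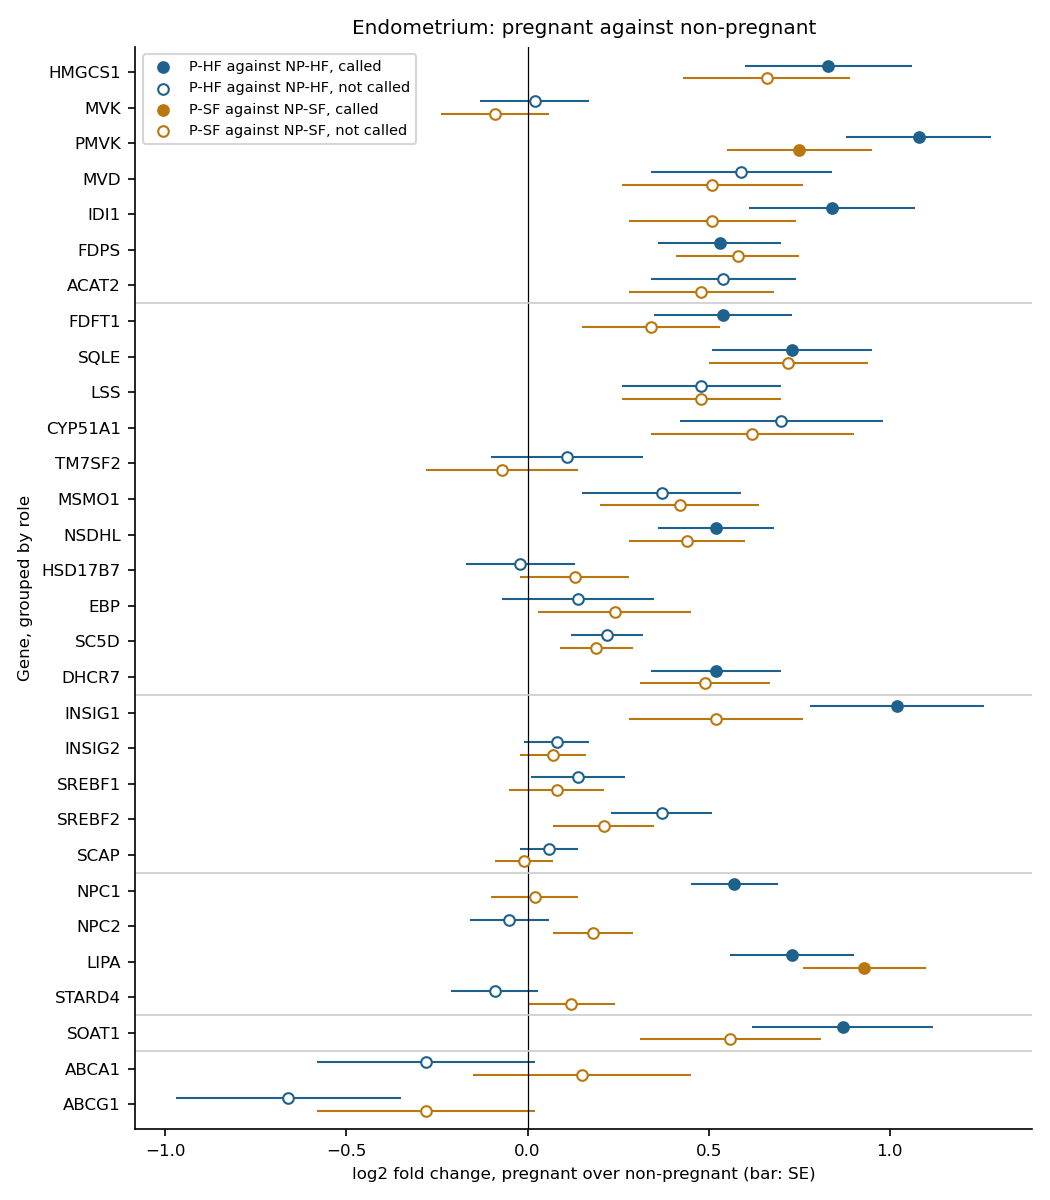
Log2 fold change with SE (x axis) of each of the 30 genes (y axis, grouped by role) for P-HF over NP-HF and P-SF over NP-SF, with filled points for genes called at an adjusted p under 0.05. There are 12 filled points for HF and 2 for SF, all to the right of 0, and most synthesis genes lie to the right of 0 in both classes.

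In the mevalonate part of the pathway 4 of 7 genes were called, and the median log2 fold change was 0.59. PMVK, the kinase that adds the second phosphate to mevalonate, measured 25.4, 41.2, 48.8, 27.1 and 22.5 CPM in P-HF libraries 1 to 5 and 14, 12.8, 14.5, 19.4 and 17.7 CPM in NP-HF libraries 1 to 5. The groups did not overlap, with means of 33 ± 11.4 and 15.7 ± 2.75 CPM (SD, n = 5 each). PMVK rose by 1.08 ± 0.20 on the log2 scale (adjusted p = 5.3e-04), the smallest adjusted p among the members. Groups did not overlap for 12.1% of all tested genes and for 2 members, PMVK and NPC1.

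HMGCS1, the synthase that makes HMG-CoA, measured 265, 453, 483, 192 and 239.7 CPM in P-HF and 157, 144, 219, 197 and 203 CPM in NP-HF. Libraries P-HF 2 and 3 stood far above the rest, while P-HF 4 lay inside the NP-HF range. Its log2 fold change was 0.83 ± 0.23 (adjusted p = 0.011). IDI1, the isomerase that balances both isoprenoid building blocks, read 142, 224, 229, 111 and 129.6 CPM in P-HF against 71.3, 63.8, 109.6, 103 and 120.2 CPM in NP-HF, a log2 fold change of 0.84 ± 0.23 (adjusted p = 0.011). Again libraries 2 and 3 were highest, and only P-HF 4 fell below the highest NP-HF library. FDPS, which joins these blocks into farnesyl diphosphate, was at 58.4, 72.9, 95.4, 53.1 and 58.9 CPM in P-HF and 37.4, 47.1, 57.1, 48.2 and 44.8 CPM in NP-HF (log2 fold change 0.53 ± 0.17, adjusted p = 0.03). Only P-HF 4 overlapped with the controls. The other members of this role did not pass: MVD, the decarboxylase, was at 0.59 ± 0.25 (adjusted p = 0.092), ACAT2, the cytosolic thiolase at the entry, at 0.54 ± 0.20 (adjusted p = 0.06), and MVK, mevalonate kinase, at 0.02 ± 0.15.

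In the squalene and sterol branch 4 of 11 genes were called, with a median of 0.48, and 10 of 11 were above 0. FDFT1 is squalene synthase, the first step committed to sterols. It read 181, 298, 378, 231 and 228 CPM in P-HF and 154, 154, 212, 163 and 224 CPM in NP-HF, a log2 fold change of 0.54 ± 0.19 (adjusted p = 0.046). P-HF 1 lay within the NP-HF range and the others above it. SQLE, squalene monooxygenase, a rate-limiting step, read 93.5, 151, 161, 72.8 and 69.4 CPM in P-HF and 49, 49, 90.8, 76.2 and 66.1 CPM in NP-HF, a log2 fold change of 0.73 ± 0.22 (adjusted p = 0.019). Here P-HF 4 and 5 lay inside the NP-HF range.

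NSDHL, which takes part in removing the C4 methyl groups, measured 38.2, 54.1, 54.7, 27.6 and 36.9 CPM in P-HF and 27.9, 27.4, 40.4, 26.9 and 24.9 CPM in NP-HF (log2 fold change 0.52 ± 0.16, adjusted p = 0.027). Library NP-HF 3, at 40.4 CPM, stood above the other controls and above 3 of the pregnant libraries. DHCR7, which makes the last double bond change to cholesterol, measured 32.7, 47.6, 58.1, 34.3 and 33 CPM in P-HF and 23.8, 20.7, 39.5, 27.4 and 31.4 CPM in NP-HF (log2 fold change 0.52 ± 0.18, adjusted p = 0.045). All P-HF libraries were above 4 of the 5 NP-HF libraries. Among the 7 members of this branch that did not pass, CYP51A1, the lanosterol demethylase, was at 0.70 ± 0.28 (adjusted p = 0.079), LSS, the cyclase that forms lanosterol, at 0.48 ± 0.22 (adjusted p = 0.13), and HSD17B7 at -0.02 ± 0.15, the one negative value.

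Among the regulators INSIG1 was called. This endoplasmic reticulum protein is itself a target of SREBP and retains SCAP. It measured 68.6, 108, 144, 45.5 and 74.3 CPM in P-HF and 39.2, 24.9, 50, 53.4 and 49.5 CPM in NP-HF, a log2 fold change of 1.02 ± 0.24 (adjusted p = 0.0043). Only P-HF 4 fell within the range of the controls. SREBF2 was at 0.37 ± 0.14 (adjusted p = 0.063), and INSIG2, SREBF1 and SCAP lay between 0.06 and 0.14.

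LIPA, the lysosomal acid lipase, measured 87, 61.3, 53, 86.2 and 100.4 CPM in P-HF and 56.1, 50.2, 32.1, 54.8 and 40.7 CPM in NP-HF, a log2 fold change of 0.73 ± 0.17 (adjusted p = 0.0042). Unlike for the synthesis genes, P-HF 2 and 3 held the lowest LIPA levels of their group. NPC1, the membrane protein that lets cholesterol leave the lysosome, measured 188, 167, 192, 222 and 171 CPM in P-HF and 132, 108, 141, 99.5 and 151 CPM in NP-HF, a log2 fold change of 0.57 ± 0.12 (adjusted p = 0.0019). Its groups did not overlap. NPC2, the soluble partner of NPC1, was at -0.05 ± 0.11 and STARD4, a cytosolic sterol carrier, at -0.09 ± 0.12. SOAT1 measured 104, 179.7, 151, 57.2 and 116 CPM in P-HF and 55.6, 57.7, 94.8, 54.5 and 70.4 CPM in NP-HF, a log2 fold change of 0.87 ± 0.25 (adjusted p = 0.015). All P-HF libraries but P-HF 4 were above every control.

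Export showed no call. ABCG1 measured 261, 142, 140, 383 and 396 CPM in P-HF and 453, 458, 531, 214 and 440.4 CPM in NP-HF, a log2 fold change of -0.66 ± 0.31 (adjusted p = 0.13). Here P-HF 2 and 3 were the lowest pregnant libraries, and NP-HF 4 was far below the other controls. ABCA1 was at -0.28 ± 0.30 (adjusted p = 0.55), and its controls ranged from 171 to 709.8 CPM, with NP-HF 2 and NP-HF 4 as the high ones.

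**Figure D2:**
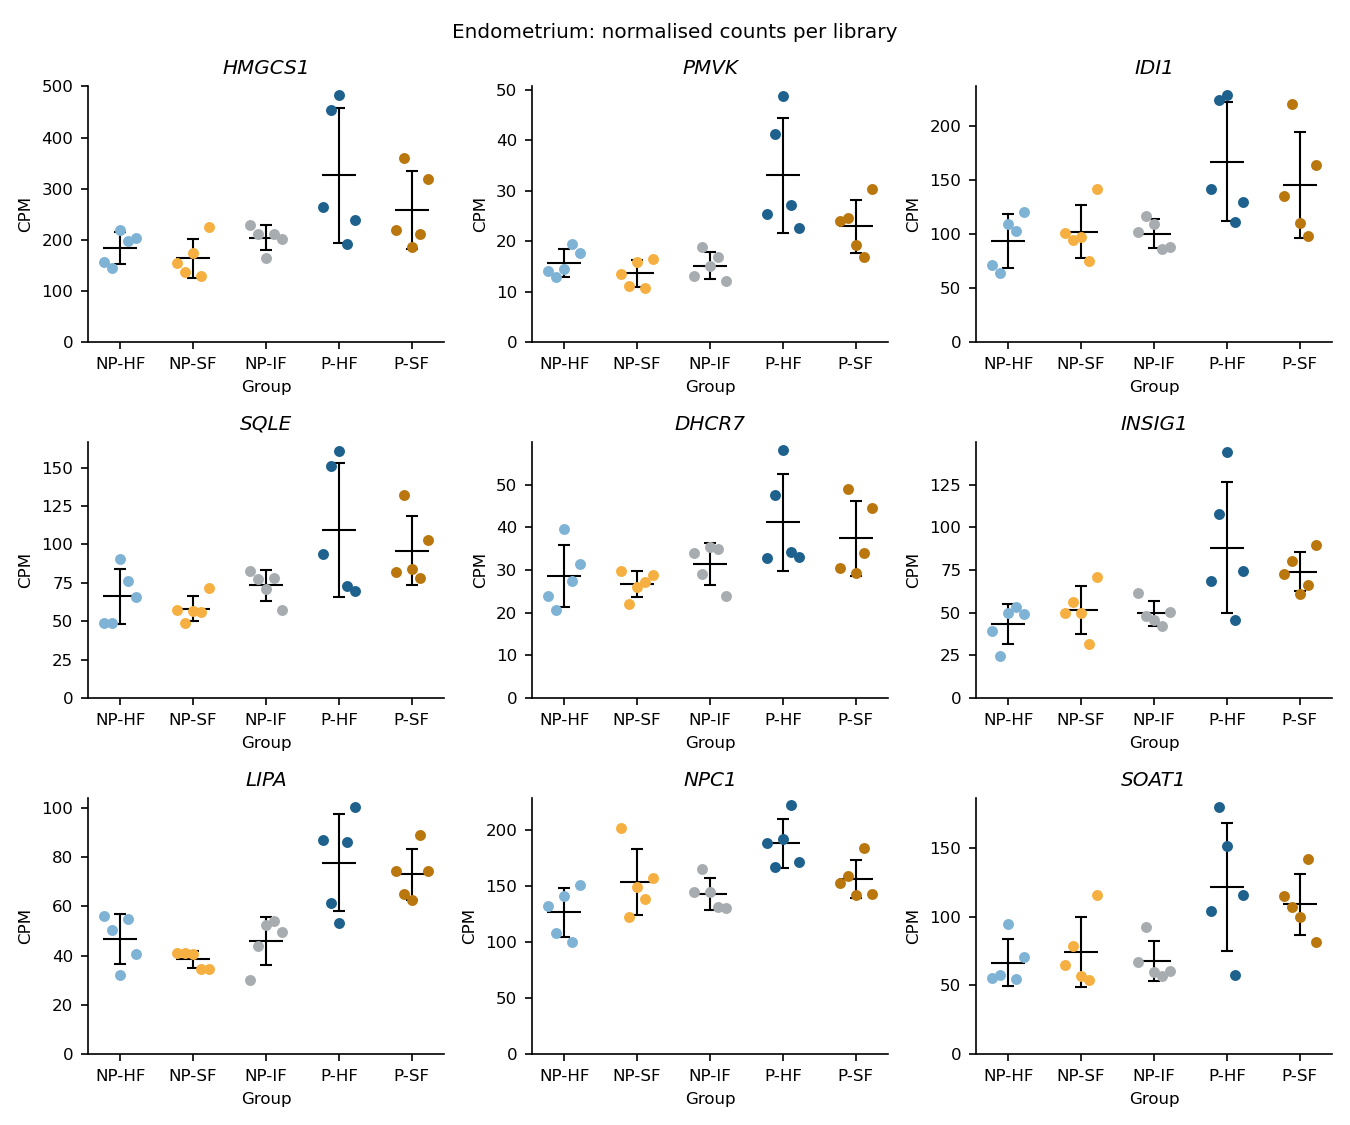
Levels (y axis, CPM) of 9 of the genes in the 5 endometrial groups (x axis), with 1 point per library and the mean with SD. For HMGCS1, IDI1 and SQLE the same 2 P-HF libraries, replicates 2 and 3, lie far above the other 3, whereas all P-HF libraries lie above all NP-HF libraries for PMVK and NPC1.

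Libraries within P-HF were unequal for synthesis. For each library the 18 synthesis genes were set against their NP-HF medians. The median ratio was 1.23, 1.86, 2.07, 1.06 and 1.14 in P-HF 1 to 5. The NP-HF libraries ran from 0.849 (NP-HF 1) to 1.25 (NP-HF 3) on this scale. Only P-HF 2 and 3 lay above that range, and the other P-HF libraries lay within it. Of the 18 genes, 16 were highest in P-HF 2 or 3. Without both of these libraries, a choice made after seeing the data, 3 members were called, PMVK (0.69), NPC1 (0.63) and LIPA (0.98), and the median log2 fold change over the members was 0.11. Leaving out single libraries gave 6 to 16 calls: 6 without P-HF 2, and 7 without P-HF 3, without NP-HF 1 or without NP-HF 2. PMVK, NPC1 and LIPA kept their call in all 16 alternatives run for this comparison. HMGCS1, IDI1 and INSIG1 lost it in 1 and SOAT1 in 2. FDPS and SQLE lost it in 6, NSDHL and DHCR7 in 8 and FDFT1 in 9.

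The second comparison asked the same in SF heifers. A lysosomal and a mevalonate gene passed. LIPA and PMVK, 2 of 30 members, were called higher with pregnancy (P-SF against NP-SF) and 0 lower. Of all tested genes 4.07% were called, 3.18% higher and 0.887% lower. The median log2 fold change was 0.38 and 26 of 30 members were above 0. With DESeq2 or with only these 2 groups in the fit, 4 members were called, FDPS and SQLE being added.

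LIPA measured 74.3, 64.9, 62.7, 88.9 and 74.3 CPM in P-SF libraries 1 to 5 and 41.2, 41, 40.7, 34.7 and 34.5 CPM in NP-SF libraries 1 to 5. With a log2 fold change of 0.93 ± 0.17 (adjusted p = 0.0017) it had the smallest adjusted p of the members in this class, and the groups did not overlap. Its call stood in all 15 alternatives. PMVK measured 24, 24.5, 19.2, 16.8 and 30.3 CPM in P-SF and between 10.8 and 16.5 CPM in the 5 NP-SF libraries, a log2 fold change of 0.75 ± 0.20 (adjusted p = 0.032). These groups did not overlap either, the closest libraries being at 16.8 and 16.5 CPM. The PMVK call was lost without P-SF 1, P-SF 2, P-SF 5, NP-SF 1, NP-SF 2 or NP-SF 4 and without P-HF 1 and P-SF 5 together, with adjusted p up to 0.14 over the alternatives, and without NP-SF 2 FDPS was called instead.

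Synthesis genes just short of the threshold in SF heifers were FDPS and SQLE. FDPS measured 57.3, 67, 56.4, 62.2 and 72.2 CPM in P-SF and 38.2, 54.6, 35.6, 37.1 and 44.5 CPM in NP-SF (log2 fold change 0.58 ± 0.17, adjusted p = 0.054). SQLE measured 82.2, 132, 84.2, 78 and 103 CPM in P-SF and 57.5, 48.8, 56.7, 56.3 and 71.7 CPM in NP-SF (log2 fold change 0.72 ± 0.22, adjusted p = 0.063). For both genes every pregnant library was above every non-pregnant one, as for NSDHL, LIPA and PMVK. These are 5 members whose groups did not overlap, beside 5.56% of all tested genes.

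Of the remaining members HMGCS1 was at 0.66 ± 0.23 (adjusted p = 0.11), INSIG1 at 0.52 ± 0.24 (adjusted p = 0.27), SOAT1 at 0.56 ± 0.25 (adjusted p = 0.24) and NPC1 at 0.02 ± 0.12 (adjusted p = 0.96). As in HF heifers, a pair of libraries carried the highest synthesis levels: 17 of 18 synthesis genes were highest in P-SF 2 or 5. Their median ratios to NP-HF were 1.63 and 1.51, against 1.07 to 1.12 in the other P-SF libraries. The NP-SF libraries ran from 0.805 to 1.1 on this scale. Of the 9 epithelial and 7 immune markers 1 each was called higher in P-SF, and 0 of 7 stromal markers were called. Their sums were 1509.9 to 1829 CPM in P-SF and 1068 to 1642 CPM in NP-SF for epithelium, 109 to 178 and 85.7 to 108 CPM for immune cells, and 9379.9 to 11935 and 10575 to 15899 CPM for stroma.

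**Figure D3:**
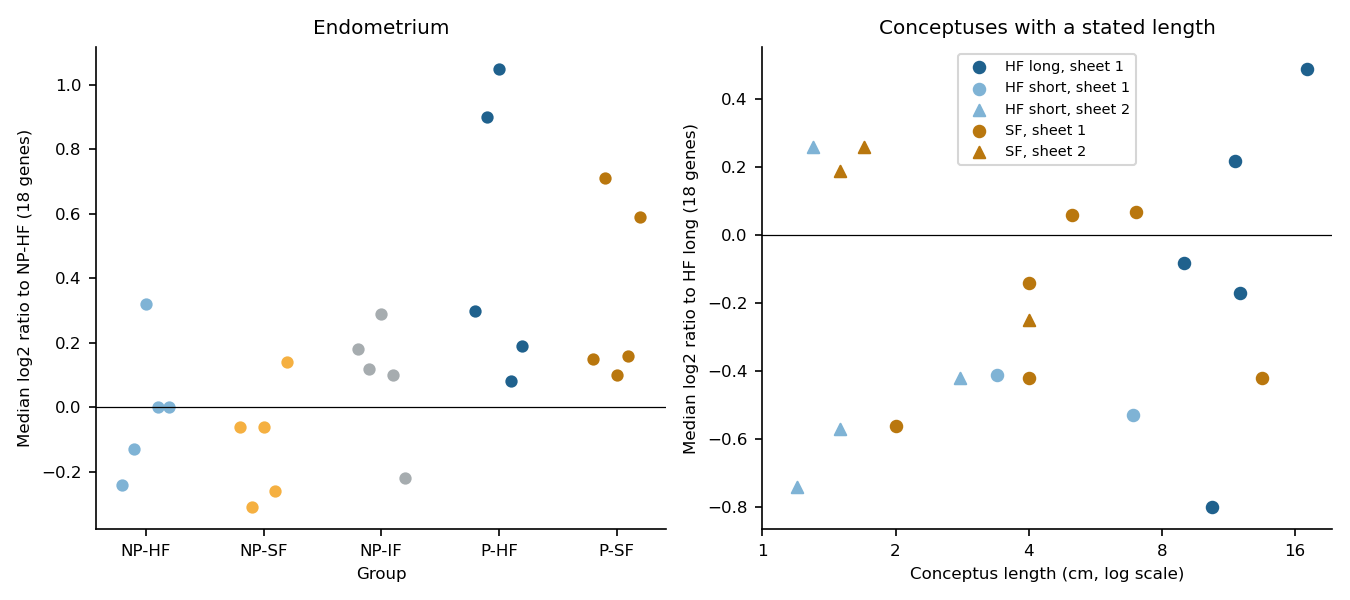
Median log2 ratio over the 18 synthesis genes for each library (y axis), against the NP-HF median in the endometrial groups (left) and against the HF long median along conceptus length in cm on a log axis (right), with 1 point per library and triangles for the second sample sheet. P-HF 2 and 3 (0.90 and 1.05) and P-SF 2 and 5 (0.71 and 0.59) stand above the other endometrial libraries. The conceptuses show no steady course along length in these ratios, which were not adjusted for sample sheet.

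The pregnancy contrasts of the HF and SF classes share no library. In both, 22 members were above 0 and 1, ABCG1, was below 0, while 7 had opposite signs: MVK, TM7SF2, HSD17B7, SCAP, NPC2, STARD4 and ABCA1. Of the 12 genes called in HF heifers, 10 had an unadjusted p under 0.05 in SF heifers and 10 had a smaller log2 fold change there. Among all 19606 tested genes 3319 had such a p in SF heifers. The same shares among all genes called in HF heifers were not worked out, so both counts lack that reference. The 12 genes were also picked by their p in HF heifers, and such a choice by itself favours smaller fold changes in SF heifers. The difference of the pregnancy effect between the classes was tested as an interaction. It was called for 0 of 30 members, beside 0.0051% of tested genes. By edgeR 1 member had an unadjusted p under 0.05, beside 1336 of all 19606 tested genes. That member was NPC1, with an interaction of -0.55 ± 0.18 (adjusted p = 0.61). DESeq2 called 0. A gene called in one class and not in the other was thus not shown to differ between them.

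Set directly against each other, P-SF and P-HF differed for 0 of 30 members by edgeR and by DESeq2, beside 0% of tested genes by edgeR. By edgeR 2 members had an unadjusted p under 0.05, beside 1984 of all 19606 tested genes. PMVK was at -0.52 ± 0.20 (adjusted p = 0.39) and NPC1 at -0.27 ± 0.12 (adjusted p = 0.47). In all, 25 of 30 members were below 0, with a median of -0.13. The 2 groups overlapped for every member, while they did not for 1.56% of tested genes. This contrast uses the same pregnant libraries as the 2 pregnancy contrasts, so its signs are not independent of them.

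Non-pregnant endometrium of the 3 classes was compared next. No member was called by edgeR or by DESeq2, as was no other gene by edgeR (0%). At an unadjusted p under 0.05 there were 2 members for NP-SF against NP-HF, 1 for NP-IF against NP-HF and 2 for NP-IF against NP-SF. In the same order, 709, 1070 and 784 of all 19606 tested genes had such a p. ABCA1 was at -0.62 ± 0.30 in NP-SF and at -0.86 ± 0.30 in NP-IF against NP-HF (adjusted p = 0.9 for the latter). It read 215, 542, 171, 709.8 and 239.9 CPM in NP-HF, 214, 316, 281, 140.2 and 267 CPM in NP-SF, and 195, 203, 168, 162 and 308 CPM in NP-IF. The high NP-HF values were those of libraries 2 and 4, and the others lay in the range of the other classes. NPC1 was at 0.28 ± 0.12 in NP-SF against NP-HF, and FDPS and STARD4 were at 0.40 ± 0.17 and 0.29 ± 0.12 in NP-IF against NP-SF. Median log2 fold changes over the members were -0.09, 0.06 and 0.08 in these 3 comparisons. The groups overlapped for every member, and failed to for 0.485%, 0.831% and 0.653% of tested genes, in the order NP-SF against NP-HF, NP-IF against NP-HF and NP-IF against NP-SF.

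Among conceptuses the first comparison was SF against HF long. One sterol enzyme, NSDHL, was called lower, 1 of 30 members, and 0 were called higher. Of the 16330 tested genes 8.9% were called, 5.1% lower and 3.8% higher. Its lowest, median and highest levels were 51.3, 64.7 and 93.3 CPM in 10 SF conceptuses and 61.9, 94.4 and 146 CPM in 10 HF long conceptuses. The ranges overlapped, as for every member (groups did not overlap for 0.0796% of tested genes), and the SF conceptus was the higher one in 20 of 100 pairs. NSDHL was at -0.55 ± 0.17 (adjusted p = 0.042), next to the threshold. In 17 of 29 alternatives the call was lost. Over all 29 the adjusted p ran from 0.02 to 0.79 and the log2 fold change from -0.64 to -0.19. It was lost without any one of C-SF 1 to 6, of C-HF-long 2, 6, 8, 9 or 10, without the sample sheet as a covariate, with the sheet read from each conceptus's own description (-0.48, adjusted p = 0.069, chosen after seeing the data), with identities from the descriptions, without a filter on low counts, and with the heifer as a random block (limma-voom). On the first sheet alone, 2 members were called, NSDHL at -0.62 and ABCA1 at 0.53, and 2 were called without C-HF-long 4, where DHCR7 (-0.46) joined NSDHL.

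In the sterol branch 10 of 11 genes, NSDHL included, were below 0, with a median of -0.36, and none but NSDHL passed. LSS was at -0.68 ± 0.27 (adjusted p = 0.1), with 5.53, 13.3 and 22.9 CPM as the lowest, median and highest values in SF and 8.06, 18.9 and 29.1 CPM in HF long. DHCR7 was at -0.36 ± 0.16 (adjusted p = 0.14). On the other side, ABCA1 was at 0.45 ± 0.19 (adjusted p = 0.13), with 368, 828 and 1195 CPM in SF and 437, 629 and 861 CPM in HF long, and LIPA at 0.40 ± 0.18 (adjusted p = 0.15). Over all 30 members the median was -0.09. Without C-HF-long 8 and 9 it was 0.00 and 0 members were called. Markers differed between these groups too: 4 of 7 stromal and 3 of 8 trophectoderm markers were called lower in SF, as was GATA6 among 9 endoderm markers, while CLDN7 among 9 epithelial and TIE1 among 6 endothelial markers were called higher. Of 5 epiblast markers 4 were tested and 0 called, with a median log2 fold change of 1.04. The stromal sum was 2.55 to 99.6 CPM in SF and 6.14 to 64.9 CPM in HF long, the trophectoderm sum 12318 to 32158 and 9772 to 26969 CPM, and their part in the NSDHL result was not tested.

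**Figure D4:**
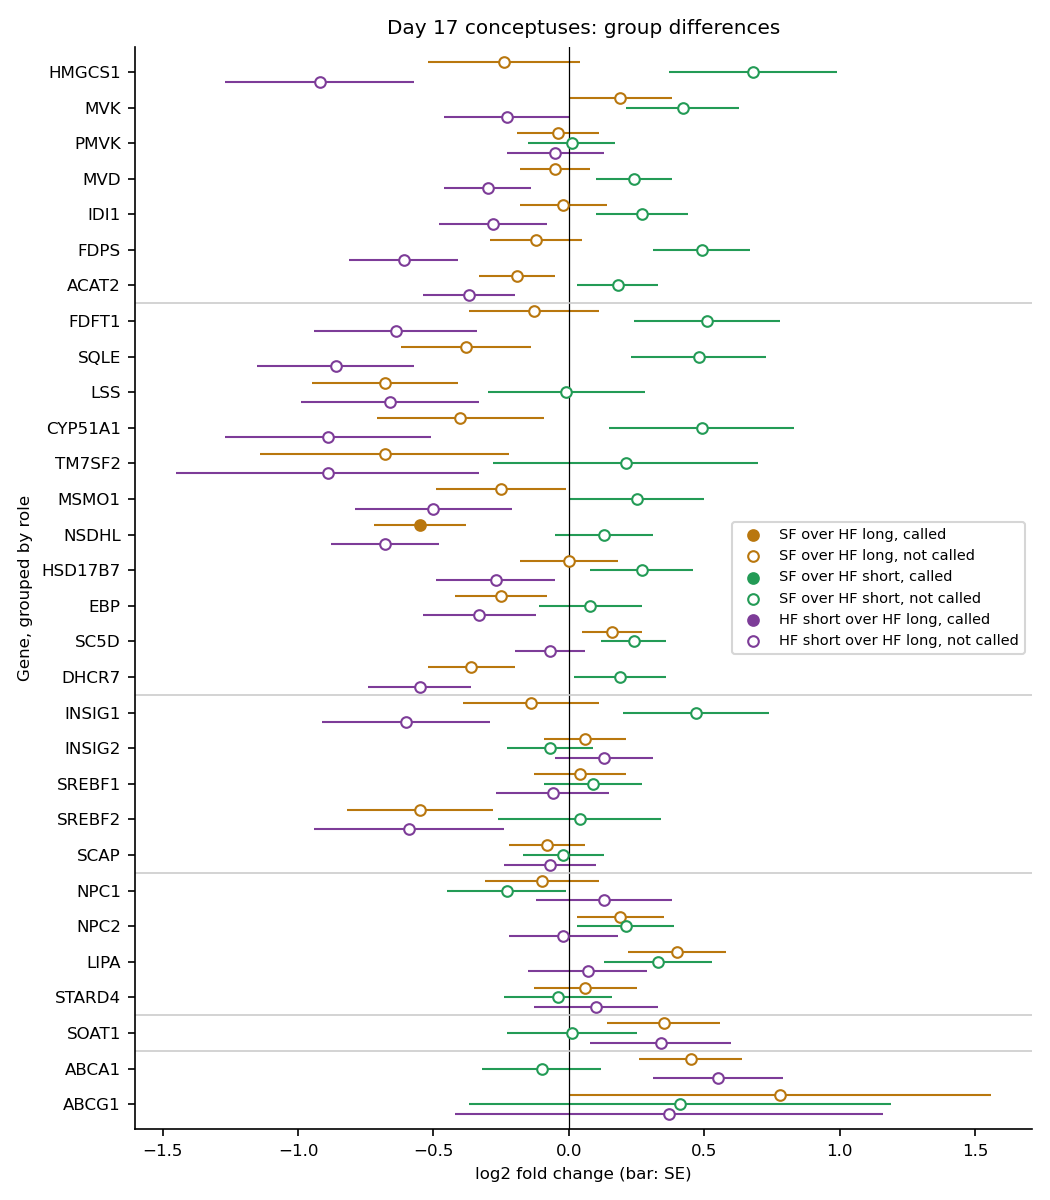
Log2 fold change with SE (x axis) of each of the 30 genes (y axis, grouped by role) for the 3 comparisons between conceptus groups, with a filled point for a call. NSDHL in SF against HF long is the one filled point. For HF short against HF long all 18 synthesis genes lie below 0. The fold changes were adjusted for sample sheet.

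SF conceptuses were next compared with HF short ones, and 0 of 30 members were called by edgeR or by DESeq2, beside 0.00612% of tested genes. The signs were mostly positive, 24 of 30, with a median of 0.21. An unadjusted p under 0.05 was reached by FDPS at 0.49 ± 0.18 (adjusted p = 0.38) and HMGCS1 at 0.68 ± 0.31 (adjusted p = 0.5). Among all 16330 tested genes 1468 reached it. FDPS had 117, 173 and 241 CPM as its lowest, median and highest values in SF and 104, 126 and 150.2 CPM in HF short. Groups overlapped for every member, and did not for 0.104% of tested genes.

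Within HF heifers, short conceptuses were compared with long ones. No member was called by edgeR or by DESeq2, beside 0% of tested genes, and the smallest adjusted p was 0.93. All 7 mevalonate genes and all 11 genes of the sterol branch were below 0 in HF short, with medians of -0.30 and -0.64, while the other 12 members held 7 positive values. These log2 fold changes were adjusted for sample sheet, the CPM given below were not. Of the 7 short conceptuses 4 were on the second sheet and no long one was, so size class and sheet were partly confounded. In the 4 heifers that gave both, the direction was mixed, on CPM not adjusted for sheet. C-HF-short 6 and 7 were on the second sheet and their long partners on the first, while the other pairs were both on the first. Of the 18 synthesis genes, 15 were lower in the short conceptus for C-HF-short 2 against C-HF-long 3, 18 for C-HF-short 6 against C-HF-long 8, 7 for C-HF-short 7 against C-HF-long 10 and 2 for C-HF-short 3 against C-HF-long 4, with median log2 differences of -0.24, -0.94, 0.06 and 0.27. Of the 30 members 9 had an unadjusted p under 0.05, as had 599 of all 16330 genes. NSDHL was at -0.68 ± 0.20, with 44.5, 59.8 and 101 CPM as the lowest, median and highest values in HF short against 61.9, 94.4 and 146 CPM in HF long. HMGCS1 was at -0.92 ± 0.35, with 319, 439 and 1036 CPM against 361, 777 and 1512 CPM. SQLE was at -0.86 ± 0.29, with 54.3, 62.4 and 146 CPM against 58.3, 112 and 180 CPM. All 3 ranges overlapped. ABCA1 went the other way, at 0.55 ± 0.24, with 471, 854 and 1361 CPM against 437, 629 and 861 CPM. These contrasts share libraries: the HF long conceptuses serve in both comparisons against them, and the HF short and SF conceptuses in 2 each.

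**Figure D5:**
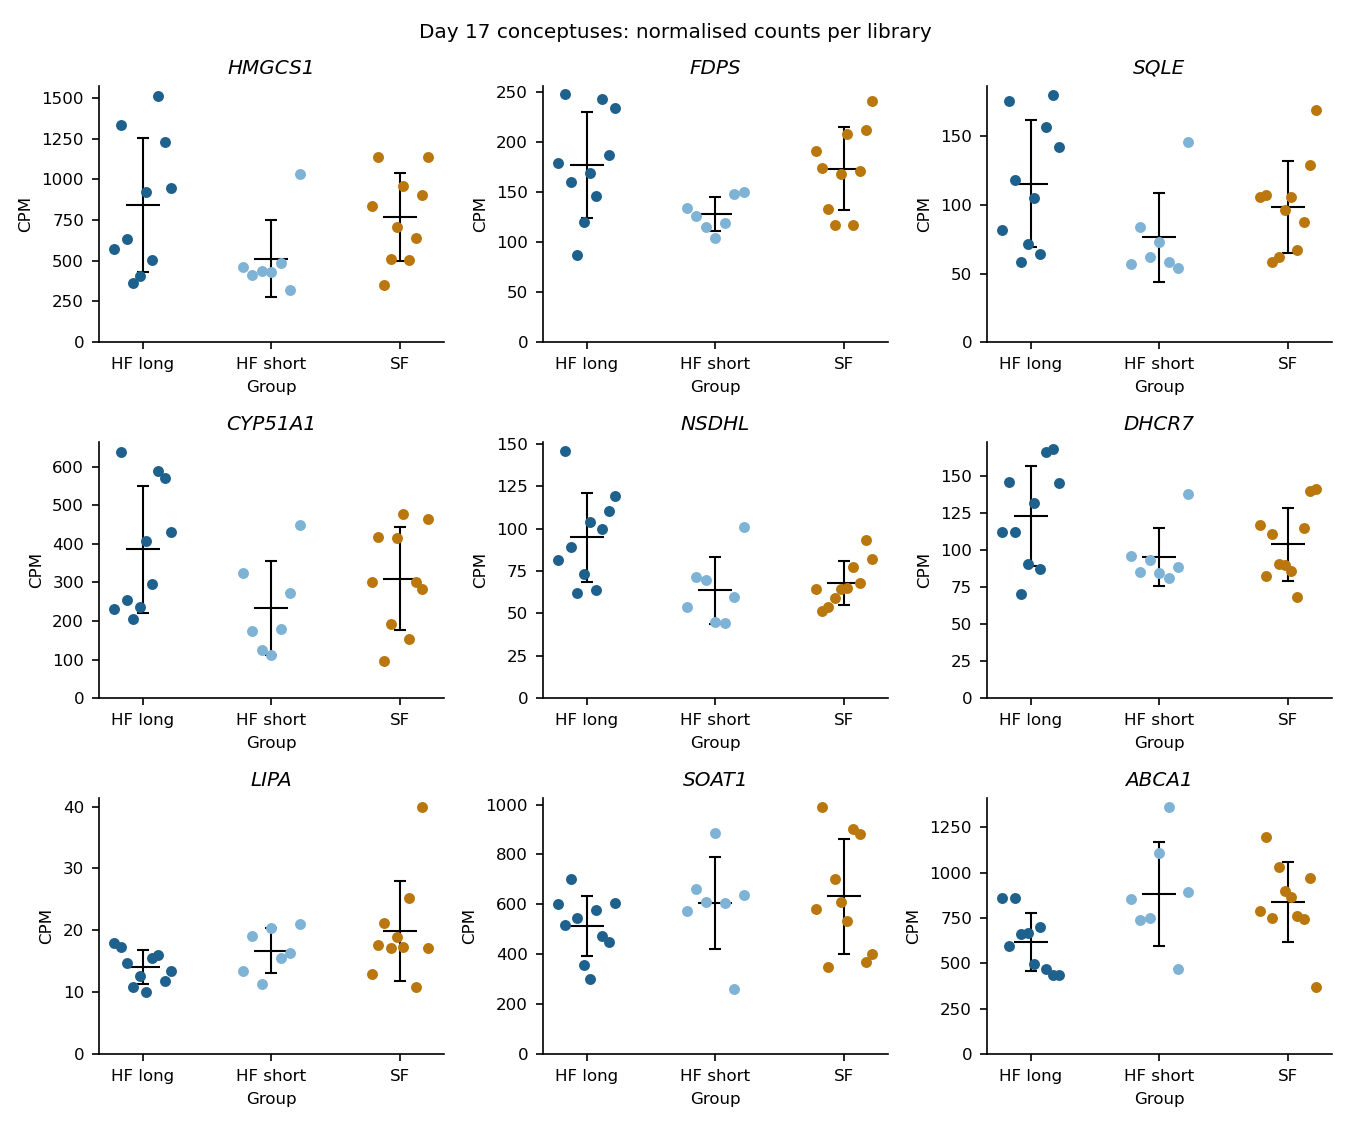
Levels (y axis, CPM) of 9 of the genes in HF long, HF short and SF conceptuses (x axis), with 1 point per conceptus and the mean with SD. In HF short 1 conceptus, replicate 7, lies far above the other 6 for HMGCS1 and SQLE, and the groups overlap in every panel.

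Spread between conceptuses of 1 group was wide for synthesis. In HF long 17 of 18 synthesis genes were highest in replicate 2, 8 or 9, and 14 of 18 were lowest in replicate 4, the second shortest of the 5 long conceptuses with a stated length, whose median ratio to the group's medians was 0.576. In HF short 13 of 18 were highest in replicate 7, of 1.3 cm, one of the shortest measured. Its HMGCS1 level was 1036 CPM, while the other 6 had 319 to 487 CPM. Without it, 0 members were called for HF short against HF long, and the median over the members was -0.35, against -0.29 with it. Among SF conceptuses, C-SF 9 and 10, of 1.5 and 1.7 cm, had the highest median ratios, 1.14 and 1.2, and C-SF 7, of 2 cm, the lowest, 0.678. C-SF 9 and 10 and C-HF-short 7 were on the second sample sheet, C-SF 7 on the first.

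Length itself was tested as a slope per doubling in the 20 conceptuses with a stated length. No member was called by edgeR or by DESeq2, beside 0% of 15592 tested genes. An unadjusted p under 0.05 was found for 2 members and for 1849 of all tested genes. DHCR7 was at 0.23 ± 0.09 per doubling (adjusted p = 0.36) and MVD at 0.17 ± 0.07 (adjusted p = 0.38). MVD had a median of 46.8 CPM in 6 conceptuses under 2.5 cm, 56.6 CPM in 8 from 2.5 to 8 cm and 61.1 CPM in 6 over 8 cm. In the same bins its values were 34.8 to 50.3, 47.2 to 69.4 and 39.2 to 76.5 CPM, so the longest conceptuses overlapped with the shortest. For DHCR7 the bin medians were 111, 90 and 112 CPM, with the middle bin lowest. HMGCS1 had bin medians of 702, 575 and 602 CPM, with no order by length in these values (slope 0.18 ± 0.18). The slopes were adjusted for sample sheet, the CPM in the bins were not. All conceptuses under 2.5 cm but C-SF 7 were on the second sheet, and all over 8 cm on the first. Length and sheet could therefore hardly be told apart. Slopes were positive for 24 of 30 members, with a median of 0.09. Without the sheet covariate MVD was called, at 0.18 (adjusted p = 0.044), the one call among the alternatives. With identities from the descriptions 10 of 30 slopes were positive and the median was -0.04.

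Other genes of cholesterol and lipid handling, a list of 52, of which 48 were tested in the endometrium, moved in both directions with pregnancy in HF heifers: 7 were called higher and 9 lower, with a median log2 fold change of -0.01. These are 14.6% and 18.8% of the tested genes of the list, beside 10.2% and 10.6% of all tested genes. With 4 to 10 tested genes each, the groups of the list named below are too small to set against these shares. The called genes with the smallest p were these. MBTPS1, the protease that makes the first cut of SREBP, fell by 0.56 ± 0.08 on the log2 scale (adjusted p = 4.4e-05). STARD5, a sterol-binding carrier, rose by 0.89 ± 0.16 (adjusted p = 3.3e-04). SEC24D, a coat protein of vesicles that leave the endoplasmic reticulum, fell by 0.50 ± 0.10 (adjusted p = 7.0e-04). PLTP, a phospholipid transfer protein, fell by 0.70 ± 0.15 (adjusted p = 0.0019), and APOB, the structural protein of low-density lipoprotein, fell by 2.37 ± 0.55 (adjusted p = 0.0035). ACSS2, which makes acetyl-CoA from acetate, rose by 1.07 ± 0.26 (adjusted p = 0.0053). Of the 7 fatty acid genes also driven by SREBP, 4 were called higher and 0 lower. Of 6 lipoprotein receptor genes 1 was called higher and 2 lower. The 4 other sterol enzymes tested had 0 called higher and 1 lower, and the 5 lipoprotein genes tested 0 higher and 2 lower. The 10 sterol transporters and carriers had 1 called higher and 2 lower, and the 5 SREBP proteases and partners 0 higher and 2 lower. Among 6 genes of the oxysterol pathway 1 was called higher, and 0 of 5 other isoprenoid genes were called. In SF heifers 2 genes of the list were called higher, ACSS2 at 0.99 ± 0.26 and STARD5 at 0.68 ± 0.16, and 1 lower, MBTPS1 at -0.45 ± 0.08. That is 4.17% higher and 2.08% lower, beside 3.18% and 0.887% of all tested genes. In conceptuses ELOVL6, a fatty acid elongase, was called higher in SF than in HF long, at 0.54 ± 0.13 (adjusted p = 0.014), and it was the one call of the list between conceptus groups. For SF against HF long this is 2.08% of the list, below the 8.9% called among all tested genes.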

How the data were processed

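RNA sequencing was done on 25 endometrium and 27 conceptus samples of heifers. The authors deposited whole-number read counts per gene, not normalized, for 31651 named genes and 52 libraries, which sum to different totals per library. A further 1020 lines of the table were blank and were not used. Per the labels' protocols the kit marked strand, and RNA was extracted with different reagents from endometrium and conceptuses, so the tissues were fitted separately and no gene was tested between them. Per the submitters' processing notes, UMD3.1 was the build, and the tools named are StringTie, HISAT2 and edgeR. The sources used here do not give versions, settings or whether counting used strand. All 30 members were current symbols in a RefSeq gene table of the newer assembly ARS-UCD2.0, from which nothing else was taken.

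Genes with low counts were dropped by filterByExpr with a minimum count of 10 and a minimum total of 15. Libraries were scaled by TMM and tested by quasi-likelihood in edgeR, p-values were adjusted over all tested genes (Benjamini-Hochberg), and calls were made at 0.05. All 5 endometrial groups shared 1 fit. The 3 conceptus groups were fitted with the sample sheet (from the description that names the titled animal and length) as a covariate, as was the slope on log2 length. Each SE was derived from the log2 fold change and its F statistic. All 30 members passed the filter in every fit. The tools were edgeR 4.0.16, DESeq2 1.42.0 and limma 3.58.1 under R 4.3.3, and the scripts were tested on simulated data.

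Members, roles and lists were chosen with earlier results of these data known. All members may be named, with full statistics for called ones. Of the other pathway genes those with the smallest p were named, at most 6 per comparison. Markers are given as sums.

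Of the 8 pairs of conceptuses that shared a heifer, the deviations of 6 correlated above 0.1 (median 0.46, range -0.06 to 0.74, against a median of -0.04 for conceptuses of different heifers, on log2(CPM + 1)). Each endometrial library came from another animal. No 2 libraries held identical values. Alternatives were DESeq2's size factors, DESeq2, no filter, the compared groups alone, no sheet covariate, the sheet from each library's own description, the first sheet alone, identities from the descriptions, the heifer as a block, class as a covariate, and leaving out libraries.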

Additional observations from a re-analysis of the deposited data

Results flagged for a closer look

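In 240 sets of 1 gene in 1 group of 5 to 10 libraries, 20 (8.33%) had a highest or lowest library whose gap to the others was large for the group's range. The cut-offs flag about 1 in 20 such sets if values are normally distributed, which was not tested for these CPM. The sets are also not independent, since genes share libraries. Of the 20, 7 belonged to the short conceptus C-HF-short 7: HMGCS1 was at 1036 CPM (the others at 319 to 487), IDI1 at 85.3 (32.9 to 50.7), SQLE at 146 (54.3 to 83.8), LSS at 30.1 (9.74 to 14.7), MSMO1 at 460 (127 to 204), DHCR7 at 138 (80.8 to 96.1) and SCAP at 121 CPM (55.9 to 68.1). Long conceptus 8 stood above its group for TM7SF2, at 13 CPM (0.806 to 3.57), and for NPC2, at 325 CPM (114 to 186). Long conceptus 3 did so for NPC1, at 174 CPM (61.8 to 117), and for ABCG1, at 2.62 CPM (0.154 to 1.29). Other high conceptuses were C-SF 9 for LIPA, at 39.9 CPM (10.9 to 25.3), C-HF-short 1 for NPC2, at 186 CPM (127 to 144), and C-HF-short 2 for ABCG1, at 4.64 CPM (0.0688 to 0.71).

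In the endometrium all 6 were in non-pregnant groups. NP-HF 3 had NSDHL at 40.4 CPM (the others at 24.9 to 27.9), NP-HF 4 had ABCG1 at 214 CPM (440.4 to 531), and NP-SF 3 had NPC2 at 139 CPM (107 to 114). In NP-IF, library 2 had MVK at 11.1 CPM (16.5 to 17.6), and library 5 had NSDHL at 26.7 CPM (36.2 to 39) and ABCA1 at 308 CPM (162 to 203).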

How the results depend on the processing

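Over 69 alternative fits no called value changed sign. For P-HF against NP-HF, 12 members were called, 6 to 16 when single libraries were left out, 14 with DESeq2, 10 without a filter, 8 with only the groups compared, and 3 without both P-HF 2 and 3. For P-SF against NP-SF, 2 were called, 1 to 2 when single libraries were left out, 4 with DESeq2, 4 with only the groups compared, and 1 without P-HF 1 and P-SF 5. For SF against HF long conceptuses, 1 was called and 0 to 2 when single libraries were left out. It was 0 without a filter, 0 without the sheet covariate, 0 with the sheet from each library's own description, 0 with identities from the descriptions, 0 without C-HF-long 8 and 9, and 2 on the first sheet alone. Without the sheet covariate the length slope had 1 call. The interaction, the class comparisons and the other conceptus comparisons had 0 calls in every alternative run. The causes were not tested. Leaving out pairs of libraries or single conceptuses, and the sheet from own descriptions, were chosen after seeing the data. With the heifer as a random replicate block (limma-voom), 0 members were called in each conceptus comparison, and 0 with it as a fixed block in heifers with pairs (short against long, and length). No pairing by animal exists in the endometrium. At most 10 libraries a group limit the precision, and few reads limit the ABCG1 values of conceptuses.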

Other observations

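Conceptus and pregnant endometrium are set side by side here without a test, since they were extracted with different reagents and scaled separately. The tissues share animals: 8 of the 10 heifers with pregnant endometrium also gave conceptuses. How many of all genes separate between the tissues was not worked out, so the counts of members below cannot be read as particular to them. The 27 conceptuses lay above all 10 pregnant endometrial libraries for 5 members, ACAT2, EBP, DHCR7, STARD4 and SOAT1. STARD4 had medians of 247 CPM in conceptuses (118 to 434) and 26 CPM in endometrium (20.7 to 34.6), and SOAT1 of 579.9 CPM (261 to 989.9) and 111 CPM (57.2 to 179.7). For 7 members the conceptuses lay below: IDI1, TM7SF2, HSD17B7, INSIG1, INSIG2, LIPA and ABCG1. LIPA had medians of 16.3 CPM in conceptuses (10.1 to 39.9) and 74.3 CPM in endometrium (53 to 100.4).

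The exporters differed from each other in this respect. ABCG1 had a median of 0.661 CPM in conceptuses, at most 4.64 CPM, and 238 CPM in pregnant endometrium (140 to 468), while the ABCA1 ranges overlapped. C-SF 7 had 0 reads for ABCG1, which allows a level of up to 0.156 CPM (3 counts, counting error only). TM7SF2, a sterol reductase of the same reaction as LBR, had medians of 2.08 CPM in conceptuses (0.417 to 13) and 32.3 CPM in endometrium (20.5 to 47.6). The remaining 18 members overlapped between the tissues.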
